A study of Mus musculus with 6 samples.

Results

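Cntnap2, Csmd1, Lrp1b and Ctnna3 are 4 of the longest genes of the mouse genome, and their bodies were examined here as targets of single DNA methyltransferases in embryonic stem cells. The genes were chosen by name, as very long genes expected to be untranscribed in these cells. No methylation value entered the rule, but earlier results of these data were known when they were chosen. Each was taken as a fixed interval on mm9: Cntnap2 as chr6:45015001-47250000, Csmd1 as chr8:15900001-17530000, Lrp1b as chr2:40460001-42500000 and Ctnna3 as chr10:62900001-64460000. The intervals covered 99.1% to 99.7% of the length of each gene in the RefSeq gene list. They held 38082 of the 19807681 autosomal CpG sites of the deposited series table, and 6896 of these sites (18.1%) passed the coverage limits in all 3 lines.

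The assay was bisulfite sequencing of the whole genome, in which an unmethylated cytosine is read as T and a methylated one stays C. All 3 lines were embryonic stem cells null for DNMT1, DNMT3A and DNMT3B. The DNMT3A2 line expressed DNMT3A2 alone, the DNMT3B1 line expressed DNMT3B1 alone, and the SETD2 knockout line (TKO, SETD2-KO) expressed DNMT3B1 and lacked SETD2 as well. The promoter that drove each enzyme is not given in the sources used here. Each line was sequenced in 2 runs and is treated as 1 library, since the labels name no separate libraries or cultures. Differences between lines therefore carry no p-value, and the intervals below describe reads and CpG clusters within 1 library of each line. An unmodified line was not analysed here, so levels were read against the rest of the autosomes in the same line.

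DNMT3A2 and DNMT3B1 are de novo methyltransferases, which set methyl groups on CpGs without a methylated template. DNMT1, which copies methylation after replication, was absent from all lines. SETD2 sets the trimethyl mark H3K36me3 along transcribed genes, which the PWWP domain of DNMT3B binds, so a gene body without transcription is a place where that mark is usually lacking. Cntnap2 encodes CASPR2, a neurexin-family adhesion protein of axons. Csmd1 encodes a large membrane protein with CUB and sushi domains that is abundant in brain, and Lrp1b encodes an endocytic receptor of the LDL receptor family. Ctnna3 encodes alpha-T-catenin, which links cadherins to actin and is best known from heart muscle, so the name neuronal is a loose one for it. The files hold no RNA, and transcription of these genes was not measured here.

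The 5′ ends of 2 of the genes could be shown in sequence, because the spacing of the CpGs in a RefSeq promoter can be found again among the mm9 sites. Each sequence runs from 250 bases before the RefSeq start to 50 bases after it, 5′ to 3′ on the gene's strand, is credited to RefSeq on GRCm38.p6, and has every CG in capitals, since these are the sites a bisulfite read reports. The CpGs of the Cntnap2 promoter fell on chr6:45009810-45010109 of mm9, plus strand, and those of the Ctnna3 promoter on chr10:62892596-62892895, plus strand. Csmd1 and Lrp1b are given by name only.
Cntnap2 promoter: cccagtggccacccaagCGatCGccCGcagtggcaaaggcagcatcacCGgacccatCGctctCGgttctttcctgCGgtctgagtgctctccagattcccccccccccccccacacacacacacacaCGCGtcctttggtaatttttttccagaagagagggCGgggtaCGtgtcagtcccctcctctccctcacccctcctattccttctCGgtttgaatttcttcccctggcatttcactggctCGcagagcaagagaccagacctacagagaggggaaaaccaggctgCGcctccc
Ctnna3 promoter: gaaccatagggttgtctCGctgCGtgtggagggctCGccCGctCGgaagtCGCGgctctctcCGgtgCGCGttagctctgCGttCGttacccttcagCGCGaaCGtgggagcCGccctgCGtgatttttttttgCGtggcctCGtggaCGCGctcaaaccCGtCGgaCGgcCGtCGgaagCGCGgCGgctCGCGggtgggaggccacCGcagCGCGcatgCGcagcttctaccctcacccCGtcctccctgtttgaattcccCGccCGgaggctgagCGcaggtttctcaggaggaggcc
The Cntnap2 promoter held 14 CpGs, 13 of them listed in the table, and the Ctnna3 promoter held 39, a much denser run. Of 31396 autosomal RefSeq promoters, 15382 held at least 8 CpGs.

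Both promoters were almost free of methylation in every line. The Cntnap2 promoter gave 0 methylated of 102 reads in DNMT3A2, 0 of 49 in DNMT3B1 and 0 of 127 in the SETD2 knockout, with exact upper 95% limits of 3.55%, 7.25% and 2.86%. The Ctnna3 promoter gave 0 of 554, 0 of 472 and 4 of 487 reads, the last a level of 0.821% (exact 95% interval 0.224% to 2.09%). Promoters without a methylated read were common: among placed promoters with at least 50 reads they made up 69.2%, 76.0% and 41.9% in the 3 lines. Within 1 kb of the start the levels stayed below 1%, with 0.278%, 0.588% and 0.279% at Cntnap2 and 0.369%, 0.277% and 0.661% at Ctnna3. The gene bodies, described next, were above these values in every line.

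The bodies themselves were poor in CpGs and thinly covered. Sites per kb numbered 4.42 in Cntnap2, 5.07 in Csmd1, 4.48 in Lrp1b and 6.93 in Ctnna3, against a median of 8.28 over 2 Mb windows of the autosomes. Sites passed with at least 5 reads in each line, in effect 10 in the knockout, and within the coverage maximum. Their share was 25.4% (2509 sites) in Cntnap2, 23.1% (1906) in Csmd1, 17.6% (1898) in Ctnna3 and 6.37% (583) in Lrp1b, against 35.6% on the other autosomes. Lrp1b thus rests on far fewer sites than the other 3 genes. With sites chosen on DNMT3A2 and DNMT3B1 alone, 2056 sites of Lrp1b passed. The libraries held 200364080, 188661576 and 200947834 CpG reads in DNMT3A2, DNMT3B1 and the SETD2 knockout, the last counted over sites with at least 10 reads, since others were not listed for it.

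Coverage also differed by chromosome. At sites under 10 CpGs per kb, chromosome 6, which carries Cntnap2, had 1.46, 1.45 and 1.73 times the coverage of the median autosome in DNMT3A2, DNMT3B1 and the SETD2 knockout. Chromosome 8, which carries Csmd1, had 1.33, 1.33 and 1.55 times that coverage. Chromosome 2 with Lrp1b (1.03, 1.04 and 1.07) and chromosome 10 with Ctnna3 (0.989, 0.983 and 0.957) were close to the median. Sites not listed for the knockout entered its mean as sites without reads. Its ratios therefore also follow the share of sites listed and are not comparable in size with those of the other lines. The raised chromosomes are those of the 2 genes with the lowest DNMT3A2 levels below, and a reference of the same chromosome alone is therefore given beside those levels.

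All 4 gene bodies were less methylated than autosomal DNA of the same CpG density, and by most in the DNMT3A2 line. The density-matched level is the level that sites of the other autosomes reach in 6 bins of CpG density, weighted by the reads of the gene. Cntnap2 had a methylation level of 4.01% in DNMT3A2 (1265 of 31551 reads), 2.22% in DNMT3B1 (667 of 30058) and 5.56% in the SETD2 knockout (2430 of 43697), against matched levels of 7.29%, 3.05% and 6.77%. Csmd1 had nearly the same profile, with 4.11% (918 of 22337 reads), 2.29% (499 of 21754) and 5.99% (1924 of 32115), against 7.49%, 3.14% and 6.89%. In both genes the order of the lines was the SETD2 knockout, then DNMT3A2, then DNMT3B1, while on the other autosomes DNMT3A2 was the highest, at 7.28%, 2.76% and 5.87% for DNMT3A2, DNMT3B1 and the knockout.

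Lrp1b had 5.12% in DNMT3A2 (281 of 5488 reads), 2.83% in DNMT3B1 (159 of 5626) and 5.31% in the SETD2 knockout (444 of 8361), against matched levels of 7.29%, 3.08% and 6.83%. Ctnna3, the gene richest in CpGs of the 4, had 6.49% (1264 of 19474 reads), 2.74% (534 of 19509) and 6.61% (1972 of 29831), against 8.27%, 3.17% and 6.77%. In these 2 genes DNMT3A2 and the SETD2 knockout were at about the same level: the 95% cluster intervals were 4.15% to 6.32% and 4.42% to 6.38% for Lrp1b, and 5.86% to 7.19% and 6.06% to 7.21% for Ctnna3. DNMT3B1 was the lowest line in all 4 genes, as it was over the other autosomes.

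**Figure D1:**
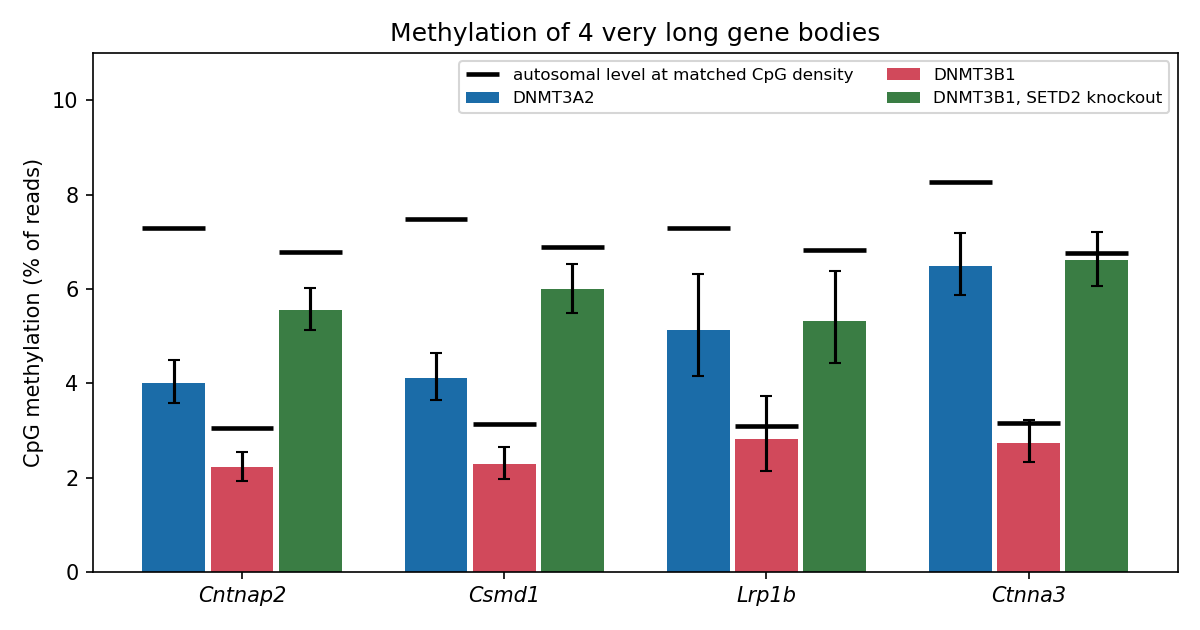
Methylation level in percent of CpG reads (y axis) in each of the 4 genes (x axis) for the 3 lines, each treated as 1 library. Error bars are 95% intervals over 500 bp clusters of CpGs, and black lines are the autosomal level at matched CpG density. Every bar lies below its black line, from 4.01% against 7.29% for DNMT3A2 at Cntnap2 to 6.61% against 6.77% for the SETD2 knockout at Ctnna3.

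As a share of the matched level, DNMT3A2 reached 0.550 in Cntnap2 and 0.549 in Csmd1, 0.702 in Lrp1b and 0.785 in Ctnna3. On the log2 scale these DNMT3A2 values were -0.86 (95% cluster interval -1.03 to -0.70), -0.87 (-1.04 to -0.69), -0.51 (-0.81 to -0.20) and -0.35 (-0.50 to -0.20), all with intervals below 0. When 10 reads were required, the values of Lrp1b (-0.22) and Ctnna3 (-0.18) had intervals that included 0. With the rest of its own chromosome as the reference, the value was -0.83 for Cntnap2 and -0.84 for Csmd1. The deficit of DNMT3A2 in these 2 genes was thus as large within chromosomes 6 and 8 as against all autosomes.

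DNMT3B1 was nearer to its matched level, at 0.727 in Cntnap2, 0.731 in Csmd1, 0.916 in Lrp1b and 0.864 in Ctnna3. Only the first pair had log2 intervals below 0, at -0.46 (-0.66 to -0.26) and -0.45 (-0.67 to -0.24). When 1 read was enough, Lrp1b (-0.35) and Ctnna3 (-0.21) had them as well. The SETD2 knockout reached 0.821, 0.870, 0.778 and 0.977, with log2 values of -0.28 (-0.40 to -0.17) for Cntnap2, -0.20 (-0.32 to -0.08) for Csmd1, -0.36 (-0.63 to -0.10) for Lrp1b and -0.03 (-0.16 to 0.09) for Ctnna3. In the knockout line Ctnna3 thus could not be told from its matched level, while the other 3 genes were below theirs.

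The genes differed from each other mainly in the DNMT3A2 line. There, 4 of the 6 gene pairs had a difference in log2 level over matched level whose interval excluded 0: Cntnap2 was lower than Ctnna3, with a difference of -0.51 (-0.73 to -0.29), and lower than Lrp1b, with -0.35 (-0.70 to -0.01). Csmd1 was likewise lower than Ctnna3, with -0.52 (-0.75 to -0.29), and than Lrp1b, with -0.36 (-0.71 to -0.01). Cntnap2 and Csmd1 could not be ordered, with a difference of 0.004 (-0.24 to 0.24), nor could Lrp1b and Ctnna3, with -0.16 (-0.50 to 0.18). In DNMT3B1 the interval included 0 in all 6 pairs. In the SETD2 knockout, Cntnap2 and Lrp1b were each lower than Ctnna3, with differences of -0.25 (-0.42 to -0.08) and -0.33 (-0.62 to -0.04), and the other 4 pairs could not be ordered.

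The comparison of DNMT3B1 with DNMT3A2 asks whether these gene bodies are targeted by the 2 enzymes to unequal degrees. In every gene DNMT3B1 kept a larger share of its matched level than DNMT3A2 did. The DNMT3B1 level was 0.553, 0.558, 0.552 and 0.422 times the DNMT3A2 level in Cntnap2, Csmd1, Lrp1b and Ctnna3. Over all other autosomal sites, not matched for CpG density, it was 0.378 times. The relative log2 ratio, which is the log2 ratio of the 2 lines' levels after each is divided by its matched level, was 0.40 (95% cluster interval 0.16 to 0.65) in Cntnap2 and 0.41 (0.16 to 0.67) in Csmd1. It was 0.38 in Lrp1b (-0.10 to 0.86) and 0.14 in Ctnna3 (-0.14 to 0.41), where the interval included 0. The Cntnap2 value fell to 0.20, with an interval that included 0, when 10 reads were required in each line.

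The comparison of the SETD2 knockout with DNMT3B1 asks what loss of the H3K36 methyltransferase SETD2 does to DNMT3B1 methylation in genes where its mark should be scarce. None of the 4 genes lost methylation in percent of reads. The knockout level was 2.51 times the DNMT3B1 level in Cntnap2, 2.61 times in Csmd1, 1.88 times in Lrp1b and 2.42 times in Ctnna3. Over all other autosomal sites, not matched for CpG density, it was 2.13 times. The relative log2 ratio was 0.18 in Cntnap2 (-0.05 to 0.40), 0.25 in Csmd1 (0.01 to 0.49) and 0.18 in Ctnna3 (-0.09 to 0.45). It was -0.24 in Lrp1b (-0.70 to 0.23). Csmd1 alone had an interval above 0, which it kept in 9 of 14 settings, the one reported here included, with ratios of 0.12 to 0.22 in the others. The sign in Lrp1b turned to 0.02 when 1 read was enough and to 0.06 when sites were chosen on the 2 compared lines. At this precision Cntnap2, Lrp1b and Ctnna3 could not be told from the autosomes in this comparison.

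Between the SETD2 knockout and DNMT3A2 the difference was clearer. The relative log2 ratio was 0.58 in Cntnap2 (0.39 to 0.77), 0.67 in Csmd1 (0.45 to 0.88), 0.32 in Ctnna3 (0.13 to 0.50) and 0.15 in Lrp1b (-0.24 to 0.53). The level of the knockout was 1.39 and 1.46 times that of DNMT3A2 in Cntnap2 and Csmd1 and 1.04 and 1.02 times in Lrp1b and Ctnna3. Over all other autosomal sites, not matched for CpG density, it was 0.806 times. The 3 comparisons share lines, so their values are not independent of each other.

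**Figure D2:**
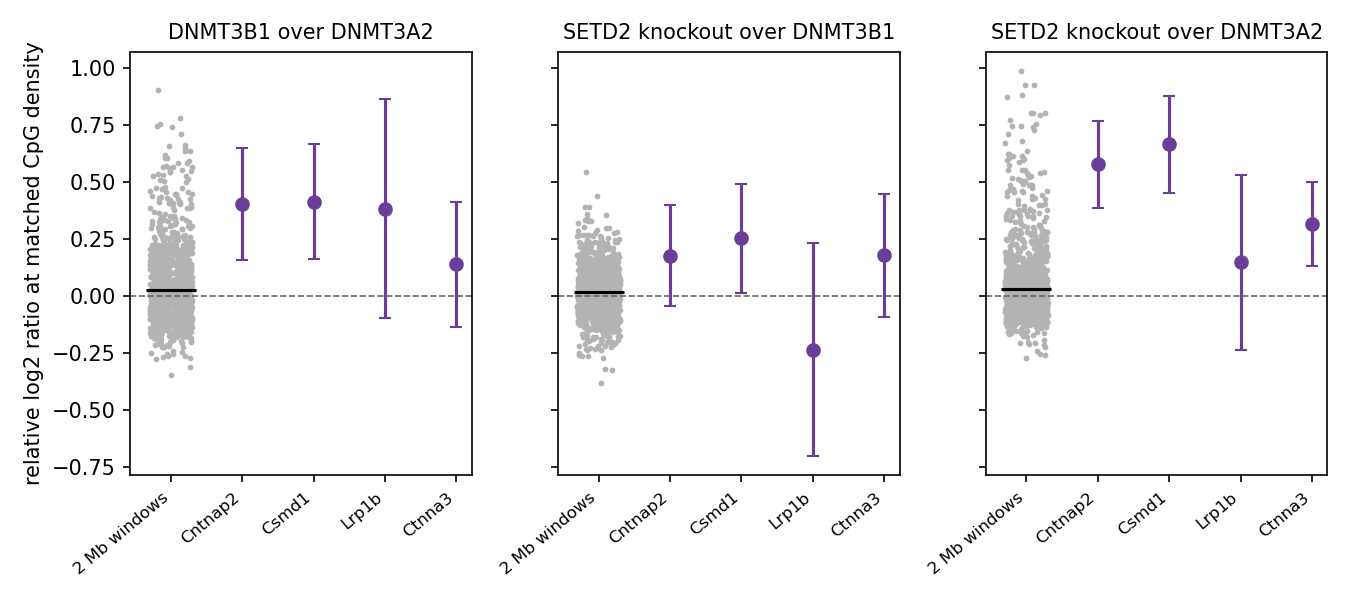
Relative log2 ratio at matched CpG density (y axis) in 3 comparisons (panels); grey points are 2 Mb windows of the autosomes with their median as a black bar, and purple points are the 4 genes with 95% intervals over 500 bp clusters. Cntnap2 and Csmd1 lie in the upper part of the windows for DNMT3B1 over DNMT3A2 (0.40 and 0.41) and for the SETD2 knockout over DNMT3A2 (0.58 and 0.67).

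Windows of about the size of the genes showed how unusual these values were. Among 1061 windows of 2 Mb with at least 1000 passing sites, only 22 (2.07%) had a DNMT3A2 level over matched level below that of Cntnap2, and likewise 22 below that of Csmd1. For Lrp1b and Ctnna3 the count was 84 (7.92%) and 146 (13.8%). For DNMT3B1 over DNMT3A2, 94.3% of windows lay below Cntnap2, 95.1% below Csmd1, 93.9% below Lrp1b and 76.4% below Ctnna3. For the SETD2 knockout over DNMT3B1 the shares were 92.4%, 97.4%, 0.943% and 92.6%, so that Lrp1b stood at the low end, although with 583 sites it would not itself have qualified as a window and its value is less precise.

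Part of this position was shared by CpG-poor DNA in general. In the 300 windows with 4.42 to 6.93 sites per kb, the range of the genes, the median log2 level over matched level was -0.28 in DNMT3A2, -0.15 in DNMT3B1 and -0.09 in the SETD2 knockout. The median relative log2 ratio in them was 0.15 for DNMT3B1 over DNMT3A2, with 79.0% of windows above 0, and 0.19 for the SETD2 knockout over DNMT3A2, with 88.7% above 0. Within these windows Cntnap2 and Csmd1 were still near the edge in DNMT3A2, with 19 of 300 windows (6.33%) below each. Ctnna3 was near the middle, with 116 windows (38.7%) below it, and Lrp1b between, with 69 (23.0%). For DNMT3B1 over DNMT3A2, 83.3%, 85.3%, 81.7% and 49.0% of the 300 windows lay below Cntnap2, Csmd1, Lrp1b and Ctnna3. Ctnna3 sits at the upper edge of this range of site density, so most of these windows are sparser than it.

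Over the 4 genes together the DNMT3A2 deficit shrank with CpG density, although the bins mix the genes. Sites with 1 to 4 CpGs per kb were methylated at 2.73% in DNMT3A2, which was 0.485 times the level of such sites on the other autosomes. At 5 to 9 CpGs per kb the level was 4.56% (0.574 times), at 10 to 19 it was 6.91% (0.754 times), and at 20 to 39 it was 6.68% (0.988 times). The sparsest bin was led by Cntnap2 (902 of 1802 sites) and the densest by Ctnna3 (191 of 256). Within single genes the course was less regular: Cntnap2 had 0.417, 0.539, 0.743 and 0.875 times the autosomal level in the 4 bins, but Csmd1 was lower at 5 to 9 CpGs per kb (0.459) than at 1 to 4 (0.548), and Lrp1b was lowest at 10 to 19 (0.598, against 0.660 at 1 to 4). Ctnna3 had 0.478 at 1 to 4 and 0.817, 0.770 and 0.934 above that. DNMT3B1 over the 4 genes was at 0.745, 0.737, 0.876 and 0.806 times the autosomal level in the 4 bins. The SETD2 knockout was at 0.853, 0.840 and 0.903 times in the first 3 bins and at 1.32 times in the densest, where its level was 6.67% (exact 95% interval 5.93% to 7.47%) against 5.04% on the other autosomes. This interval leaves out the spread between CpG clusters. The autosomal knockout level fell from 6.93% at 10 to 19 to 1.17% at 40 to 59 CpGs per kb. Whether density differed within the bin of 20 to 39 was not tested.

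Cntnap2 and Csmd1 carried most of the sparse sites. In Cntnap2 the 902 sites with 1 to 4 CpGs per kb were methylated at 2.35% in DNMT3A2, 2.02% in DNMT3B1 and 5.43% in the SETD2 knockout, so that the 2 enzymes were at nearly equal levels there. On the other autosomes such sites had 5.63%, 2.83% and 6.54%. In Csmd1 the 547 sites of this class had 3.09%, 1.99% and 5.69%. Only 142 of the passing sites of Ctnna3 (7.48%) were of this class, against 36.0% in Cntnap2, and they had 2.69%, 1.91% and 5.43%, close to the values in Cntnap2.

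**Figure D3:**
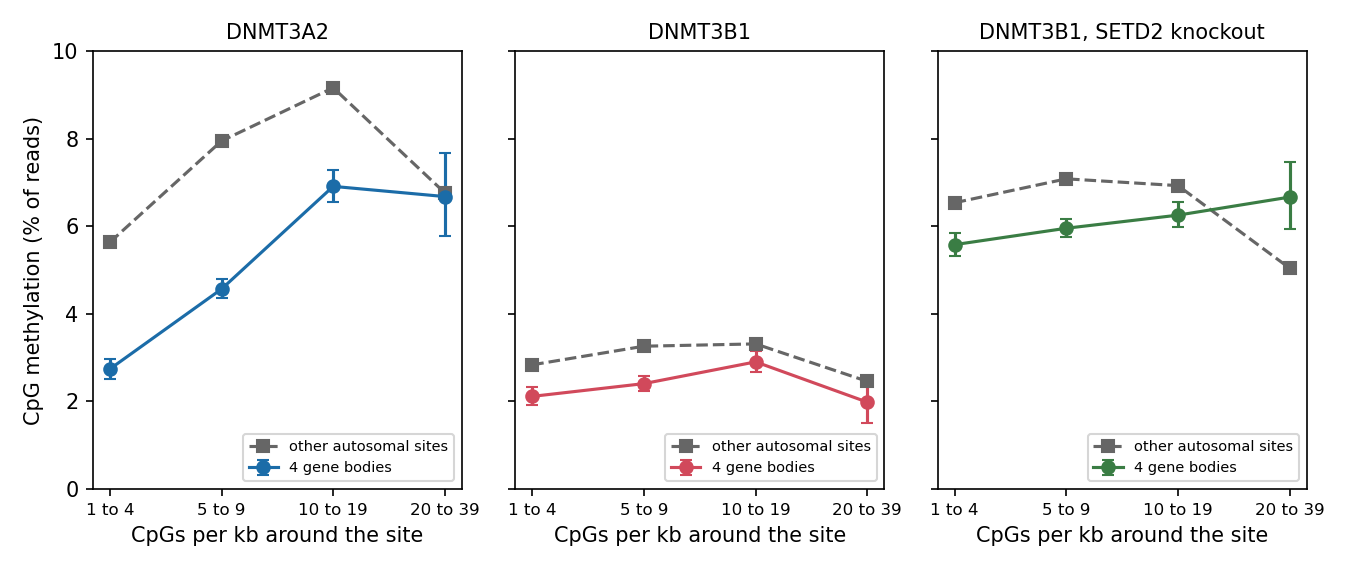
CpG methylation in percent of reads (y axis) by CpG density, the number of CpGs in the 1 kb around a site (x axis) in the 3 lines (panels); coloured points are the 4 gene bodies together with exact 95% binomial intervals, and grey squares are the other autosomal sites. As a share of the autosomal level the genes are lowest for DNMT3A2 at 1 to 4 CpGs per kb, at 2.73% against 5.63%. At 5 to 9 CpGs per kb the DNMT3A2 levels are 4.56% against 7.95%, a wider gap in percent of reads.

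Most sites in the 4 genes carried no methylated read, and strongly methylated sites were rare. Of the 6896 passing sites, 75.6% had no methylated read in DNMT3A2, 87.2% in DNMT3B1 and 66.7% in the SETD2 knockout. On the other autosomes at under 10 CpGs per kb the shares were 62.7% in DNMT3A2 and 82.8% in DNMT3B1, and 1212605 of 2021411 such sites had none in the knockout. Sites with at least 50% of reads methylated numbered 83 (1.20%) in DNMT3A2, 47 (0.682%) in DNMT3B1 and 79 (1.15%) in the knockout, against 2.09%, 0.754% and 1.42% of the autosomal sites. In DNMT3A2 such sites were scarcest in Cntnap2, at 0.598% (15 of 2509), and Csmd1, at 0.839% (16 of 1906). In Lrp1b and Ctnna3 they made up 2.06% (12 of 583) and 2.11% (40 of 1898), near the autosomal share. At a mean coverage of 9.41 to 12.6 reads per site in DNMT3A2, levels of single sites are coarse. The autosomal sites above are all under 10 CpGs per kb, while those of the genes include denser ones. Over all other autosomal sites, 63.2%, 84.2% and 63.8% had no methylated read in the 3 lines. There, 2.01%, 0.591% and 1.06% had at least 50% of reads methylated. Coverage was not matched either: in DNMT3A2 it was 11.4 reads in the genes and 12.2 at the autosomal sites under 10 CpGs per kb.

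Along the genes, DNMT3A2 varied most within Cntnap2. Splitting each interval into 3 segments of equal length, a choice made after the profiles had been seen, gave a DNMT3A2 log2 level over matched level of -1.79 (-2.26 to -1.32) in the 5′ segment of Cntnap2, -1.25 (-1.59 to -0.90) in the middle and -0.54 (-0.74 to -0.35) in the 3′ segment. The levels behind these were 2.01%, 2.97% and 5.16%. DNMT3B1 did not follow this course, at 2.26%, 1.93% and 2.34%, nor did the SETD2 knockout, at 5.30%, 5.33% and 5.77%. In the 5′ segment the levels of DNMT3A2 and DNMT3B1 were thus close to each other, and the relative log2 ratio was 1.36 (0.68 to 2.03), against 0.58 (0.08 to 1.08) in the middle and 0.16 (-0.15 to 0.47) in the 3′ segment.

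The SETD2 knockout over DNMT3A2 followed the same course in Cntnap2, at 1.43 (0.89 to 1.97), 0.90 (0.50 to 1.31) and 0.31 (0.08 to 0.55). Ctnna3 ran the other way, with the DNMT3A2 value at -0.23 (-0.42 to -0.05) in its 5′ segment, -0.48 (-0.77 to -0.19) in the middle and -0.65 (-1.13 to -0.17) in the 3′ segment, and these intervals overlapped. From the low-coordinate to the high-coordinate segment, Csmd1 had -0.36 (-0.73 to 0.02), -1.02 (-1.28 to -0.76) and -1.0 (-1.26 to -0.74), and Lrp1b had -0.30, -0.52 and -0.73 with overlapping intervals. In the high-coordinate segment of Csmd1 the SETD2 knockout over DNMT3B1 was 0.54 (0.17 to 0.92), against -0.20 (-0.73 to 0.32) in the low-coordinate one.

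**Figure D4:**
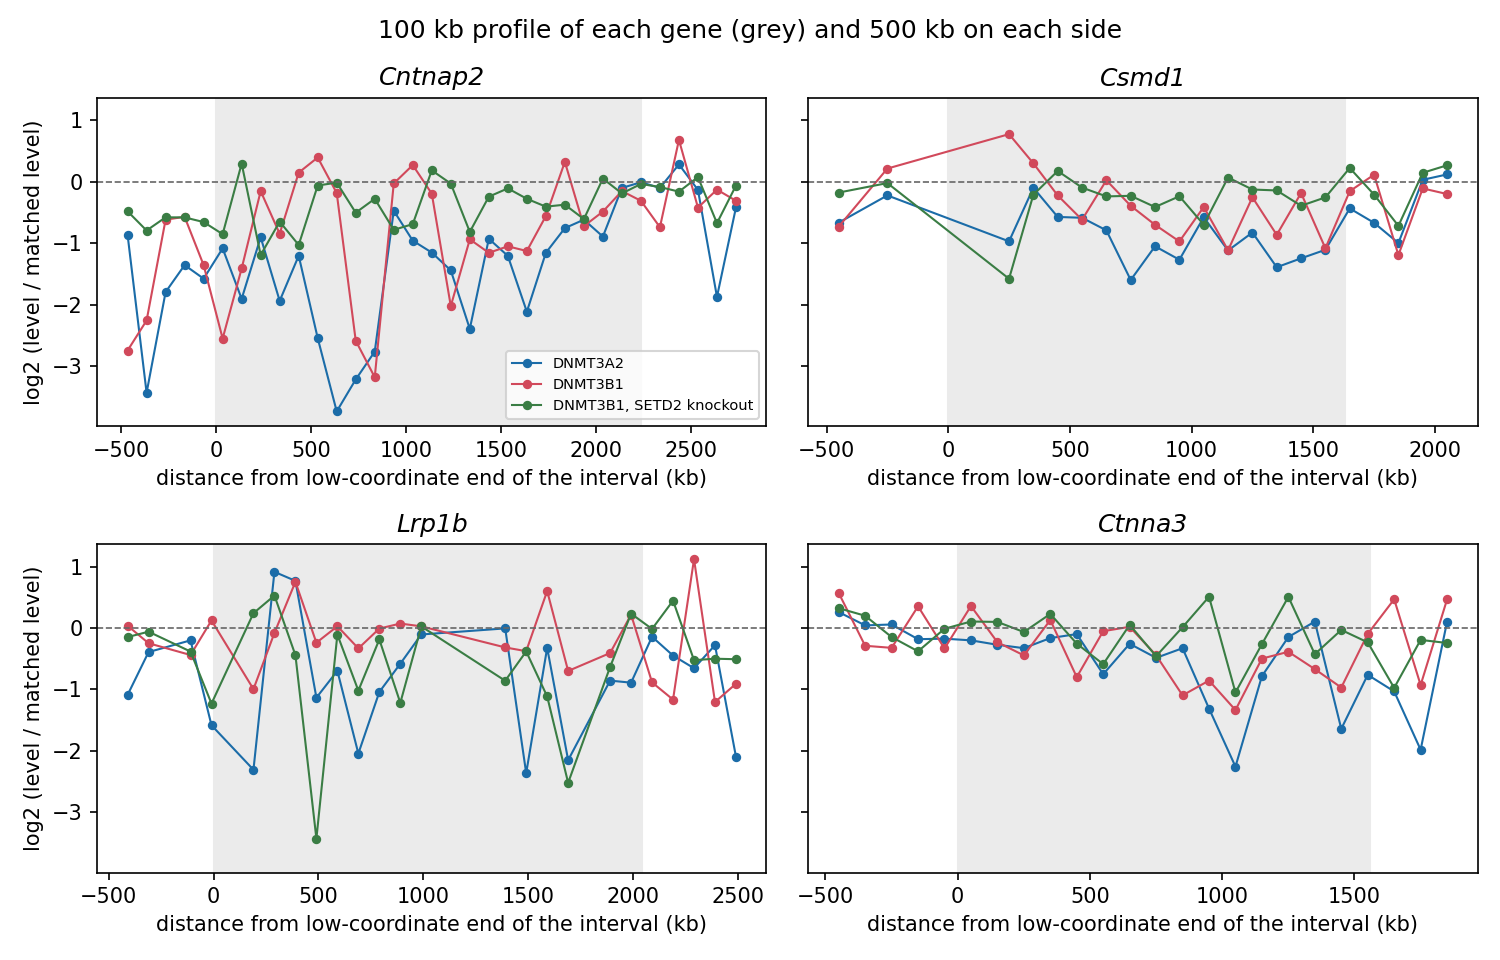
Profile in 100 kb tiles along the 4 genes (grey) and 500 kb on each side: log2 of the level over the level at matched CpG density (y axis) against the distance from the low-coordinate end of the interval in kb (x axis), for the 3 lines; tiles with at least 20 sites are shown. DNMT3A2 is deepest in the 5′ part of Cntnap2 (segment value -1.79), and the SETD2 knockout stays nearest to 0 over most of Cntnap2 and Csmd1.

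The 4 intervals covered 75 tiles of 100 kb, of which 30 held at least 100 passing sites: 9 in Cntnap2, 13 in Csmd1, 8 in Ctnna3 and 0 in Lrp1b. DNMT3A2 was below its matched level in 30 of these 30 tiles, against 52.9% of the 15528 autosomal tiles of that kind. DNMT3B1 was below in 24 of 30 (53.2% of autosomal tiles) and the SETD2 knockout in 23 of 30 (48.3%). The median tile level was 4.74%, 2.40% and 5.89% in the 3 lines, against 7.39%, 2.82% and 6.29% over all autosomal tiles. The DNMT3A2 deficit therefore ran through these 30 tiles of 3 genes, from -2.12 to -0.01 in log2 level over matched level, and was close to 0 in some of them. Tiles with fewer sites ranged wider, from -3.74 in a Cntnap2 tile of 67 sites to 0.91 in an Lrp1b tile of 23 sites.

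A tile was called when its relative ratio was at least 1.5-fold with an interval excluding 0. For DNMT3B1 over DNMT3A2, 3 of 30 tiles were called higher, against a background of 5.03% of autosomal tiles, and 0 were called lower (background 3.27%). The median relative ratio was 0.32 over the 30 tiles and -0.004 over the autosomes, and 23 of 30 were above 0 (49.6% of autosomal tiles). For the SETD2 knockout over DNMT3B1, 1 tile was called higher (background 3.81%) and 0 lower (2.35%), with a median of 0.16 against 0.03 and 20 tiles above 0 (54.7%). For the SETD2 knockout over DNMT3A2, 7 tiles were called higher (background 5.24%) and 0 lower (0.702%), with a median of 0.44 against 0.02 and 24 tiles above 0 (53.1%). The count for the knockout over DNMT3B1 depended on the tiles used: it was 8 of 55 in 50 kb tiles (background 5.51%), 10 of 51 when 1 read was enough (3.77%) and 8 of 68 with at least 20 sites a tile (4.50%).

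Named by rule as the extremes of each gene among tiles with at least 100 sites, the tiles with the highest ratio were as follows. No tile of Cntnap2 before chr6:45900001 held that many sites, so its 5′ part could not be named. In Csmd1, chr8:16600001-16700000 led both comparisons with DNMT3A2, at 1.21 (0.16 to 2.26) for DNMT3B1 and 1.37 (0.69 to 2.05) for the SETD2 knockout, with levels of 2.52%, 2.41% and 5.89% in DNMT3A2, DNMT3B1 and the knockout. The tile chr8:17000001-17100000 of Csmd1 was the only one called higher in the SETD2 knockout over DNMT3B1, at 1.18 (0.35 to 2.02), with 28 methylated of 1899 reads in DNMT3B1 and 216 of 2957 in the knockout. In Cntnap2, chr6:46600001-46700000 had the highest ratio of the knockout to DNMT3A2, 1.84 (0.90 to 2.78), with 20 methylated of 1281 reads (1.56%) in DNMT3A2 and 111 of 2024 (5.48%) in the knockout.

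The highest tile of Cntnap2 for DNMT3B1 over DNMT3A2 was chr6:46800001-46900000, at 1.08 (0.08 to 2.08), and for the knockout over DNMT3B1 it was chr6:46400001-46500000, at 0.91 (-0.16 to 1.99), which was not called. Cntnap2 tiles with fewer sites ranged wider for DNMT3B1 over DNMT3A2. Counted from the low-coordinate end, the ratio was 3.56 in the tile centred at 635 kb (67 sites) and -1.47 at 35 kb (66 sites). No tile of Ctnna3 with at least 100 sites was called in any comparison. The highest of these were 0.70 at chr10:63400001-63500000, 0.54 at chr10:63300001-63400000 and 0.39 at chr10:63200001-63300000 for DNMT3B1 over DNMT3A2, the knockout over DNMT3B1 and the knockout over DNMT3A2. The lowest tile with at least 100 sites in each gene had a ratio between -0.76 and -0.03 over the 3 comparisons. None of these 9 values was called.

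On the sides of the genes, the low DNMT3A2 level ended in some places and ran on in others. The 500 kb beyond the 3′ end of Cntnap2, which holds the starts of Cul1 and Ezh2, had a DNMT3A2 log2 level over matched level of -0.14, higher than the gene by 0.72 (0.50 to 0.94). The 500 kb before its 5′ end had -1.44, which could not be told from the gene at a difference of -0.57 (-1.16 to 0.02). The DNMT3A2 deficit of Cntnap2 therefore extended upstream of the gene, where no RefSeq start could be placed apart from that of Cntnap2. DNMT3B1 was low on that side as well, at -1.43 on 323 sites, a difference from the gene of -0.97 (-1.61 to -0.33). The relative log2 ratio of DNMT3B1 to DNMT3A2 there was 0.009 (-0.85 to 0.87). For DNMT3A2, Ctnna3 showed the reverse. Its 5′ side, which holds the starts of Slc25a16, Dna2, Herc4, Sirt1 and others, was at 0.07, higher than the gene by 0.42 (0.22 to 0.62). Its 3′ side was at -0.71 on 135 sites, a difference of -0.36 (-1.27 to 0.56). Over 1000 kb that side was at -1.04, a difference of -0.69 (-1.34 to -0.03).

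Csmd1 was lower than its high-coordinate side, which had -0.29, by 0.57 (0.28 to 0.87), and its low-coordinate side had -0.56, a difference of 0.31 (-0.06 to 0.67). Taken over 1000 kb, the low-coordinate side of Csmd1 was at 0.15, higher than the gene by 1.01 (0.82 to 1.20). Both sides of Lrp1b were as low as the gene within their intervals, at -0.87 and -0.69. The relative log2 ratio of DNMT3B1 to DNMT3A2 was 0.002 on the 3′ side of Cntnap2, lower than in the gene with a difference of -0.40 (-0.76 to -0.04), and -0.11 on the high-coordinate side of Csmd1, lower with a difference of -0.52 (-1.0 to -0.04). With 1000 kb on each side these 2 differences were -0.25 and -0.26, with intervals that included 0. At that width 2 other differences had intervals excluding 0, -0.46 (-0.75 to -0.16) on the low-coordinate side of Csmd1 and 0.88 (0.07 to 1.70) on the 3′ side of Ctnna3.

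The RefSeq gene list, used here for names only, places 10 other genes within Cntnap2, 7 within Csmd1, 4 within Lrp1b and 2 within Ctnna3, most of them not protein-coding. The Ctnna3 body holds Lrrtm3, a synaptic adhesion gene read from the opposite strand, and Csmd1 holds the predicted gene C030002A05Rik. Cntnap2 and Lrp1b hold no other protein-coding gene. The placed promoter of Lrrtm3, with its start at 63553003 on the minus strand, gave 0 methylated of 76 reads in DNMT3A2, 0 of 142 in DNMT3B1 and 0 of 34 in the SETD2 knockout, with exact upper 95% limits of 4.74%, 2.56% and 10.3%. Within 1 kb of that start the levels were 2.16% (8 of 371 reads), 0.321% (1 of 312) and 2.46% (6 of 244), and the first and the last were above those at the starts of Cntnap2 and Ctnna3.

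Shorter genes that face each other lie beside Cntnap2 and Ctnna3. The 3 pairs below were picked from the placed starts after their values had been seen, so their values are a description with no test, and no difference from the long genes is drawn from them. Cul1, a scaffold of ubiquitin ligases, and Ezh2, the H3K27 methyltransferase of the Polycomb complex, start 141 kb apart on chr6:47404318-47545029, which is 154 kb beyond the 3′ end of the Cntnap2 interval. Their RefSeq lengths add up to 137 kb. Herc4 and the deacetylase gene Sirt1 start 95.2 kb apart on chr10:62706545-62801783, and Rufy2 and the RNA-binding protein gene Hnrnph3 start 43.6 kb apart on chr10:62443000-62486597, both on the 5′ side of Ctnna3.

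With the 2 kb next to each start left out, the level between Cul1 and Ezh2 was 9.46% in DNMT3A2 (528 of 5582 reads), 4.60% in DNMT3B1 (245 of 5326) and 6.23% in the SETD2 knockout (478 of 7675), against matched levels of 7.72%, 3.18% and 6.93%. Between Herc4 and Sirt1 the levels were 8.04%, 4.46% and 5.63%, against 8.36%, 3.23% and 6.91%. Between Rufy2 and Hnrnph3 they were 8.73%, 4.47% and 6.94%, against 8.24%, 3.02% and 6.30%.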

How the data were processed

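Whole-genome bisulfite sequencing of 3 mouse embryonic stem cell lines was read from the deposited site tables. Per the file headers, the series table gives for each CpG of the DNMT3A2 and DNMT3B1 lines the count of all reads and the count of methylated reads. For the SETD2 knockout the deposited values were counts of all and of methylated reads, with the fraction of the one in the other, at sites with at least 10 reads, and its 2 files were identical and used once. The 2 runs of a line could not be separated. Per the submitters' processing notes, mm9 was the genome build. Which aligner and methylation caller made the files is not given in the sources used here. Repeated copies mapped to 1 position and amplified duplicates would enter the counts, so all intervals cover counting error and the spread between CpG clusters only.

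A site needed at least 5 reads in each line and at most 45, 40 and 80 in DNMT3A2, DNMT3B1 and the knockout. The maximum is 5 times the median of sites with reads, taken over the listed sites in the knockout. Because sites under 10 reads were not listed for the knockout, its minimum was in effect 10 reads. That held also in the settings named by a minimum of 1 read. Mean coverage of passing sites was 13.0, 12.7 and 18.9. A level is methylated reads over all reads. The matched level came from autosomal sites outside the 4 genes in 6 bins of CpGs within 500 bp on each side (1 to 4, 5 to 9, 10 to 19, 20 to 39, 40 to 59, 60 or more). The relative log2 ratio is the difference between lines in log2 level over matched level, with a 95% interval from ratio estimation over CpG clusters of 500 bp. The interval was tried on simulated data in which such clusters varied independently. Variation over longer stretches was not simulated, so that trial does not cover it. Regions with under 3 methylated reads were set to 3. Binomial intervals are exact (Clopper-Pearson). No p-value was computed, since each line is treated as 1 library.

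Tiles were named by rule as the highest and lowest of each gene and comparison among those with at least 100 sites. RefSeq promoters with at least 8 CpGs (GRCm38.p6) were placed on mm9 where their CpG spacing matched the sites at 1 position with at most 1 CpG missing. This placed 14760 of 15382 (96.0%), and 2 of the 5 promoters of the 4 genes. No coordinates were converted. The genes and lists were chosen with earlier results of these data known. Alternatives were other coverage limits, references, tile sizes, density bins and intervals, and subtraction of the level at 60 or more CpGs per kb (0.210%, 0.153% and 0.463%) as an upper estimate of unconverted cytosines. Software was scipy 1.17.1, numpy 2.4.6, pandas 2.3.3 and matplotlib 3.10.9 under Python 3.11.15.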

Additional observations from a re-analysis of the deposited data

How the results depend on the processing

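Under the alternatives tried for the 4 genes, the level over the matched level in DNMT3A2 stayed below 0 for each gene, between -0.96 and -0.65 for Cntnap2, -0.94 and -0.80 for Csmd1, -0.63 and -0.22 for Lrp1b and -0.39 and -0.18 for Ctnna3, where the values of Lrp1b and Ctnna3 nearest 0 came from a minimum of 10 reads and had intervals including 0. So did the knockout value of Lrp1b there (-0.33). DNMT3B1 over DNMT3A2 stayed above 0 in each gene, and the SETD2 knockout over DNMT3A2 in each but Lrp1b. A minimum of 10 reads gave DNMT3B1 over DNMT3A2 as 0.20 in Cntnap2 and the knockout over DNMT3A2 as 0.30 in Ctnna3, both with intervals including 0, and as -0.11 in Lrp1b, where 94 sites were left. DNMT3B1 over DNMT3A2 in Lrp1b gained an interval above 0 without density matching (0.55) and with sites chosen on the compared lines (0.43). For the knockout over DNMT3B1, Csmd1 lost its call at minima of 1 read (0.19) and 10 reads (0.12), with a reference of tiles of like CpG density (0.22) or without a placed gene start (0.22), and with sites chosen on the compared lines (0.22). Cntnap2 gained a call without density matching (0.23), and Lrp1b changed sign with 1 read (0.021) and with sites chosen on the compared lines (0.064). The knockout level of Ctnna3 over its matched level turned to 0.12 with 10 reads and to 0.0048 with no coverage maximum. With 1000 kb on each side, the difference between side and gene changed sign for the high-coordinate sides of Csmd1 (knockout over DNMT3B1, -0.21), Lrp1b (knockout over DNMT3A2, -0.045) and Ctnna3 (knockout over DNMT3A2, 0.25). The cause of these changes was not tested.

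The counts of called tiles moved with most of these choices, also where the tiles tested stayed at 30. In the order DNMT3B1 over DNMT3A2, knockout over DNMT3B1 and knockout over DNMT3A2, the tiles called higher numbered 5, 10 and 20 of 51 with 1 read (backgrounds 5.82%, 3.77% and 8.58%), 0, 0 and 0 of 3 with 10 reads (4.49%, 4.50% and 2.56%), 5, 3 and 11 of 30 without density matching (5.95%, 4.13% and 7.48%), 5, 8 and 14 of 55 in 50 kb tiles (5.85%, 5.51% and 5.52%), and 7, 8 and 20 of 68 with at least 20 sites (backgrounds 7.17%, 4.50% and 9.71%), the last chosen after seeing the data. The knockout over DNMT3B1 gave 2 of 15 in 200 kb tiles (2.08%) and 2 of 30 with intervals over 10 kb blocks (4.09%). Tiles called lower for DNMT3B1 over DNMT3A2 numbered 1 with 1 read (2.67%) and 1 over 10 kb blocks (3.28%). For the knockout over DNMT3B1 they numbered 1 with 1 read (2.18%), 1 over 10 kb blocks (2.50%) and 1 with at least 20 sites (2.50%), and for the knockout over DNMT3A2 3 with at least 20 sites (0.786%). No paired analysis was possible because the runs of a line are pooled or identical in the files, and for the same reason no run could be left out. Depth limits Lrp1b most.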
